A study of Homo sapiens with 7 samples.

Results

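The genes described here are elongation factors and other mRNAs of the translation machinery that carry, or are classed with mRNAs that carry, a terminal oligopyrimidine (TOP) tract, and that do not encode ribosomal proteins. They were chosen by symbol from a list of 10 names. The rule uses no measured value, but the list was drawn up with earlier results of these data known. Of the 10, 9 were found among the 20056 symbols with values in the table: EEF1A1, EEF1B2, EEF1D, EEF1G, EEF2, TPT1, PABPC1, NACA and BTF3. GNB2L1 is not analysed here. All 9 passed the filter for expressed genes, a mean of at least 1 RPKM (reads scaled to the length of the exons and to the number of mapped reads) in at least 1 parameter, which left 14305 genes.

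The libraries cover 3 parameters in log-phase HCT116, an established human colorectal carcinoma cell line, with no treatment group and no control group. Transcription rate (TR) came from 2 GRO-seq libraries of nascent RNA labelled in a nuclear run-on, mRNA abundance (RA) from 3 RNA-seq libraries and translation activity (TA) from 2 libraries of polysome-associated mRNA. According to the methods, cells were split into a part for each assay, and those for polysomes were incubated with cycloheximide before harvest. The study calls its replicates biological. The labels do not say that they came from separate cultures, and the p-values measure the spread between these libraries, which may be technical.

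A TOP mRNA begins with a cytosine at its cap, followed by an unbroken run of pyrimidines. The tract lets the cell adjust the translation of ribosomal proteins and elongation factors together, through mTORC1 signalling and the cap-binding protein LARP1. In elongation, eEF1A brings aminoacyl-tRNA to the ribosome, the eEF1B complex recharges eEF1A with GTP, and eEF2 moves the ribosome along by a codon. Poly(A)-binding protein and the nascent polypeptide-associated complex, which meets new chains at the ribosome exit, are made from mRNAs of the same class.

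The first bases of the transcripts are shown because the tract is what the class is named for. Each line gives 10 bases before the transcription start and 20 bases from it, on the gene's strand, 5′ to 3′, from RefSeq (GRCh38.p14 table). The capitals mark the run of C and T that begins with C at the first or second transcribed base. The intervals are GRCh37 positions found by an exact match of the sequence, and each first transcribed base lies in an annotated exon of its gene, in the UTR and outside the coding sequence. EEF1A1 lies at chr6:74230736-74230765 (−), EEF1B2 at chr2:207024323-207024352 and, for its second start, chr2:207024609-207024638 (+), EEF1G at chr11:62341344-62341373 (−) and EEF2 at chr19:3985442-3985471 (−). TPT1 lies at chr13:45915299-45915328 (−), NACA at chr12:57119064-57119093 (−) and BTF3 at chr5:72794257-72794286 (+).
EEF1A1: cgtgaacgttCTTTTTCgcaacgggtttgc
EEF1B2, first start: aagtggccccagcctcgaggccgggcgtct
EEF1B2, second start: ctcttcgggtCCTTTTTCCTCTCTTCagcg
EEF1G: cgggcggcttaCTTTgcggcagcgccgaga
EEF2: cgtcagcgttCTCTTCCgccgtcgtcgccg
TPT1: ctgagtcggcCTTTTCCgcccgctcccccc
NACA: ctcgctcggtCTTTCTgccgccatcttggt
BTF3: cttccggcctCCCTTTagctgccatcttgc

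The runs were 7 bases long in EEF1A1, EEF2 and TPT1, 6 in NACA and BTF3, and 4 in EEF1G, where the run began at the second base. EEF1B2 held a run of 16 bases at its second listed start and none at its first. A run of C followed by at least 3 further C or T, read on the gene's strand at the first or second base, stood at a listed start of 7 of 7 of these genes. It stood at 2181 of 14355 genes of the RPKM table with a listed start (15.2%), 48 of 62 ribosomal protein genes (77.4%), 5 of 5 other TOP mRNAs and 0 of 11 other cytosolic elongation and termination factors. EEF1D and PABPC1 are not among the 7. These genes were chosen for a known tract or a role in elongation, and the other TOP mRNAs were listed as such. The counts for both thus follow in part from that choice. This is a description of letters at RefSeq starts. The starts used in HCT116 were not measured.

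Library sizes worked out from the RPKM values were 3391897 and 5629982 reads for TR, 20299018 to 22532134 for RA and 22421062 to 30805391 for TA. The 9 mRNAs had from 198 reads (EEF1B2 in TR replicate 1) to 102005 reads (EEF2 in RA replicate 2), so all stood far above a floor of 3 reads. Of the epithelial markers, EPCAM, CDH1, KRT8, KRT18 and KRT19 had a mean RA from 47.1 to 977.5 RPKM and CDX2 had 8.96, while the brush border marker VIL1 was near 0 (0.0118). Of 8 markers of other cell types, 7 had a mean RA of at most 0.155 RPKM, and COL1A1 had 11.5. Each parameter has its own assay and library preparation, so parameter and assay cannot be told apart. In these bulk libraries, fewer cells that hold an mRNA and less of it per cell cannot be told apart either.

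As a group, the 9 mRNAs took a larger share of the summed RPKM in RA than in TR, with TA between. It was 0.362 and 0.334% for TR, 0.811, 1.12 and 0.924% for RA, and 0.630 and 0.595% for TA. The parameters did not overlap. The means were 0.348% ± 0.0195 (SD, n = 2), 0.953% ± 0.159 (SD, n = 3) and 0.612% ± 0.0250 (SD, n = 2). An exact two-sided permutation test gave p = 0.1 for RA against TR and p = 0.2 for TA against RA. The smallest p this design allows is 0.1 for 2 against 3 libraries and 0.333 for 2 against 2, so none of these tests can pass 0.05. The sum weighs the most abundant mRNAs most. EEF2 and PABPC1 had means of 175.4 and 176.6 RPKM in TR, and of 1257 and 726.8 in RA. EEF1A1 had 251.5 in TR and 195.1 in RA, and was the only one of the 9 with a lower mean in RA.

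Gene by gene, 7 of the 9 mRNAs had a higher RA than TR by limma and none had a lower one. Over all genes tested, 19.2% were called higher and 48.0% lower. The stability index, the log2 difference of RA against TR on the log2(RPKM + 0.1) scale, had a median of 1.49 over the 9 mRNAs and −0.58 over all genes tested. All 9 were abundant, with 94.0% (EEF1D) to 99.9% (EEF2) of expressed genes at a lower mean RA. The paper reports that, among highly expressed genes in general, RA tends to exceed TR. Comparisons with all genes here and below were not matched for level, and the part of level in them was not tested. For the translation index, the log2 difference of TA against RA, 3 of the 9 were called lower and 0 higher, where 29.2% of all genes were lower and 6.66% higher. Its median was −0.58 for the 9 and −0.37 for all genes. With TA against TR, 5 were higher and 1 lower, where 17.0% of all genes were higher and 57.5% lower, and the medians were 0.67 and −1.08.

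The share of calls depends on the scale. Centring each library on its median shifted the log2 differences upwards by 0.67 for RA against TR, 0.50 for TA against RA and 1.17 for TA against TR. On that scale 8 of the 9 were higher and none lower for RA against TR, where 35.4% of all genes were higher and 33.7% lower. For TA against RA, 1 was then higher (BTF3) and none lower, where 19.0% of all genes were higher and 9.81% lower. For TA against TR, 8 were higher and none lower, where 38.0% of all genes were higher and 35.3% lower. The values that follow are on the deposited RPKM scale, and changes of sign or gained calls on the centred scale are given with the gene.

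**Figure D1:**
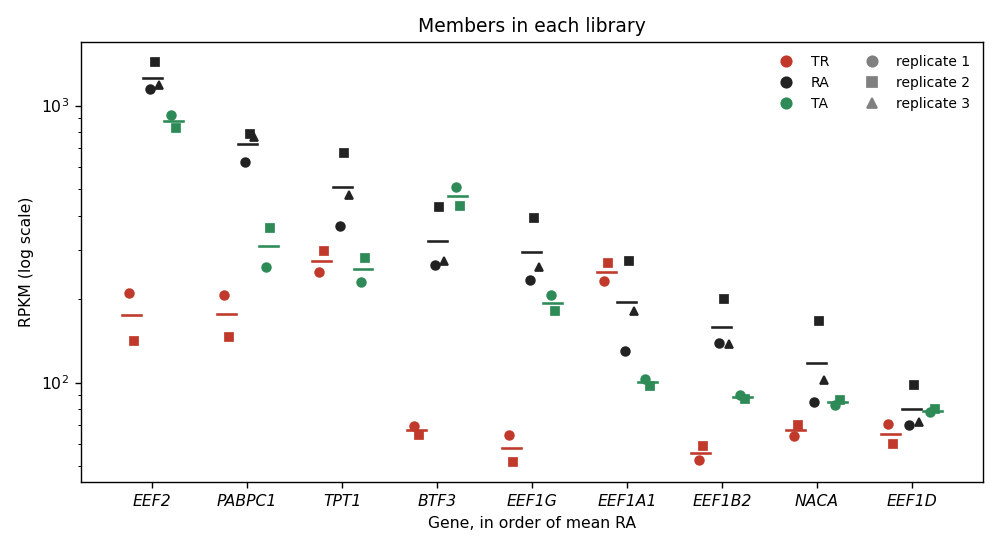
RPKM of each of the 9 mRNAs (log10 axis) in the 2 TR, 3 RA and 2 TA libraries, 1 point per library, with a bar at the mean of each parameter. EEF2 stands highest in RA and TA, and EEF1A1 is the mRNA whose 2 TA libraries both lie below both TR libraries.

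EEF2, the GTPase that translocates the ribosome, had the largest stability index of the 9. Its RPKM was 209.9 and 140.9 in TR, 1148, 1434 and 1188 in RA, and 923.2 and 828.9 in TA. The 3 RA libraries were the highest, the 2 TA libraries came next, and the parameters did not overlap. RA exceeded TR by 2.86 on the log2 scale (SE 0.32, limma with Benjamini-Hochberg adjusted p = 9.99e-05), a 7.27-fold difference, and TA exceeded TR 5.08-fold (log2 2.35, SE 0.35, adjusted p = 0.000411). TA lay 0.52 below RA on the log2 scale, which did not pass the test (adjusted p = 0.243). None of its canonical transcript's stretches of 50 bases occurred elsewhere in the genome, and 99.9% of expressed genes had a lower mean RA.

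EEF1A1, which carries aminoacyl-tRNA to the ribosome, had the lowest stability index of the 9 and was the only one of them called lower in TA than in TR. Its RPKM was 232.4 and 270.6 in TR, 130.0, 274.2 and 181.0 in RA, and 103.2 and 97.1 in TA. TR and RA overlapped, since RA replicate 2 was above both TR libraries, while both TA libraries were below all others. The stability index was −0.43 (95% interval −1.15 to 0.29, adjusted p = 0.251), and it turned to 0.24 with libraries centred. TA was 2.50-fold lower than TR (log2 −1.32, SE 0.34, adjusted p = 0.00754). That call was lost without TR replicate 2 (log2 −1.21, adjusted p = 0.0709) and with libraries centred (log2 −0.15, adjusted p = 0.715). Without RA replicate 2, RA was called lower than TR (log2 −0.71, adjusted p = 0.0341). The translation index was −0.89 (SE 0.31), which missed the threshold (adjusted p = 0.0552). It passed without RA replicate 1 (log2 −1.15, adjusted p = 0.0153) and with a filter of at least 1 RPKM in each parameter (adjusted p = 0.0478). Of the 3463 stretches of 50 bases in its canonical transcript, 47.3% occurred unchanged elsewhere in GRCh37, and the annotation names 49 of its pseudogenes. The part of these copies in its values was not tested.

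The eEF1B subunits EEF1B2 and EEF1G exceeded TR in RA, and EEF1D did not pass the test. EEF1G, the gamma subunit that holds the complex together, was at 64.6 and 51.9 RPKM in TR, 235.3, 392.4 and 261.8 in RA, and 207.0 and 181.8 in TA. Every RA library was above every TA library, and both TA libraries were above TR. The stability index was 2.32 (SE 0.27, adjusted p = 0.000111), a 4.99-fold difference, and TA exceeded TR 3.35-fold (adjusted p = 0.000748). Its translation index of −0.58 did not pass the test (adjusted p = 0.125).

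EEF1B2, a nucleotide exchange subunit, was at 52.6 and 59.2 RPKM in TR, 139.4, 200.5 and 137.5 in RA, and 90.2 and 87.2 in TA. The 3 ranges did not overlap, with TA between TR and RA. RA was 2.80-fold above TR (log2 1.49, SE 0.22, adjusted p = 0.000434). TA was 1.76-fold below RA (log2 −0.82, SE 0.22, adjusted p = 0.0224), a call that was lost in 8 of the 16 alternatives tried. Leaving out any of the TR or TA libraries was enough, with an adjusted p between 0.0505 and 0.0977. TA exceeded TR by 0.67 on the log2 scale (SE 0.24, adjusted p = 0.0320), and this too was lost without either TR or either TA library, with an adjusted p from 0.0738 to 0.136.

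EEF1D, the other exchange subunit, passed none of the tests on the deposited scale. It was at 70.8 and 60.0 RPKM in TR, 70.3, 98.2 and 71.8 in RA, and 78.1 and 80.3 in TA. RA overlapped both TR and TA. The stability index was 0.28 (95% interval −0.19 to 0.75, adjusted p = 0.254), the translation index was 0.00 (SE 0.20), and TA against TR was 0.28 (adjusted p = 0.280). With libraries centred, RA was called higher than TR (log2 0.95, adjusted p = 0.00409), and so was TA (log2 1.45, adjusted p = 0.000560). For EEF1G and EEF1B2, 71.1 and 68.9% of the stretches of 50 bases occurred elsewhere in the genome, against 6.32% for EEF1D. Other annotated genes covered 99.5% of the bases of the EEF1G transcript and 34.5% of those of EEF1D, and no source used here gives the strand setting of the counts.

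PABPC1, the main cytoplasmic poly(A)-binding protein, had the lowest translation index of the 9. It was at 207.1 and 146.1 RPKM in TR, 625.1, 787.4 and 767.9 in RA, and 260.8 and 360.8 in TA. All RA libraries were above all TA libraries, which were above both TR libraries. RA was 4.15-fold above TR (log2 2.05, SE 0.29, adjusted p = 0.000372) and TA was 2.36-fold below RA (log2 −1.24, SE 0.29, adjusted p = 0.0151). The second call was lost without TA replicate 1 (adjusted p = 0.125) and with libraries centred (log2 −0.74, adjusted p = 0.0920). TA against TR gave 0.82 on the log2 scale (adjusted p = 0.0455), which was lost without TR replicate 2, RA replicate 3 or either TA library, with an adjusted p from 0.0586 to 0.240.

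TPT1, which encodes the translationally controlled tumour protein TCTP, had the highest TR of the 9. It was at 251.3 and 299.7 RPKM in TR, 368.3, 676.4 and 474.4 in RA, and 231.6 and 280.9 in TA. RA stood above TR and TA in every library, while TR and TA overlapped. RA was 1.79-fold above TR (log2 0.84, SE 0.31, adjusted p = 0.0429) and TA was 1.92-fold below RA (log2 −0.94, SE 0.31, adjusted p = 0.0480). Both calls sat near the threshold. The first was lost when any library but RA replicate 1 was left out (adjusted p from 0.0654 to 0.205), and the second likewise (adjusted p from 0.0803 to 0.240). TA against TR was −0.11 (adjusted p = 0.791) and turned to 1.07 with libraries centred, where it passed the test (adjusted p = 0.0223).

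NACA and BTF3 encode the alpha and beta subunits of the nascent polypeptide-associated complex, and the ratio of their mRNAs differed between parameters. BTF3 was at 69.9 and 64.7 RPKM in TR, 265.3, 429.8 and 275.0 in RA, and 507.1 and 435.2 in TA. It was the only one of the 9 in which every TA library was above every RA library, a pattern seen in 14.4% of all genes tested. RA was 4.68-fold above TR (log2 2.23, SE 0.27, adjusted p = 0.000153), and TA was 6.98-fold above TR (log2 2.80, SE 0.30, adjusted p = 5.22e-05). The translation index of 0.57 did not pass the test (95% interval −0.05 to 1.20, adjusted p = 0.131). It passed without RA replicate 2 (log2 0.80, adjusted p = 0.0321) and with libraries centred (log2 1.08, adjusted p = 0.0248).

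NACA was at 64.2 and 70.4 RPKM in TR, 85.0, 167.2 and 102.2 in RA, and 83.3 and 86.2 in TA. Its RA and TA overlapped, and both were above TR. RA was 1.68-fold above TR (log2 0.75, SE 0.28, adjusted p = 0.0428), which was lost when any library but RA replicate 1 was left out (adjusted p from 0.0609 to 0.204). The translation index of −0.42 (adjusted p = 0.277) turned to 0.08 with libraries centred. TA against TR was 0.33 (adjusted p = 0.349), and it passed the test with libraries centred (log2 1.51, adjusted p = 0.00258). The deposited values use an exon length of 3472 bases for NACA, where the canonical transcript of the annotation has 6387.

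Counted by overlap, 7 of the 9 had every RA library above every TR library, a pattern in 24.3% of all genes tested, and none had every RA library below, a pattern in 54.9%. For TA against RA, 6 of 9 had every TA library below every RA library, where 43.8% of all genes did. These 6 were EEF1A1, EEF1B2, EEF1G, EEF2, PABPC1 and TPT1. For TA against TR, 7 of 9 had every TA library above every TR library, where 22.7% of all genes did, and EEF1A1 was below, as 65.5% of all genes were.

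**Figure D2:**
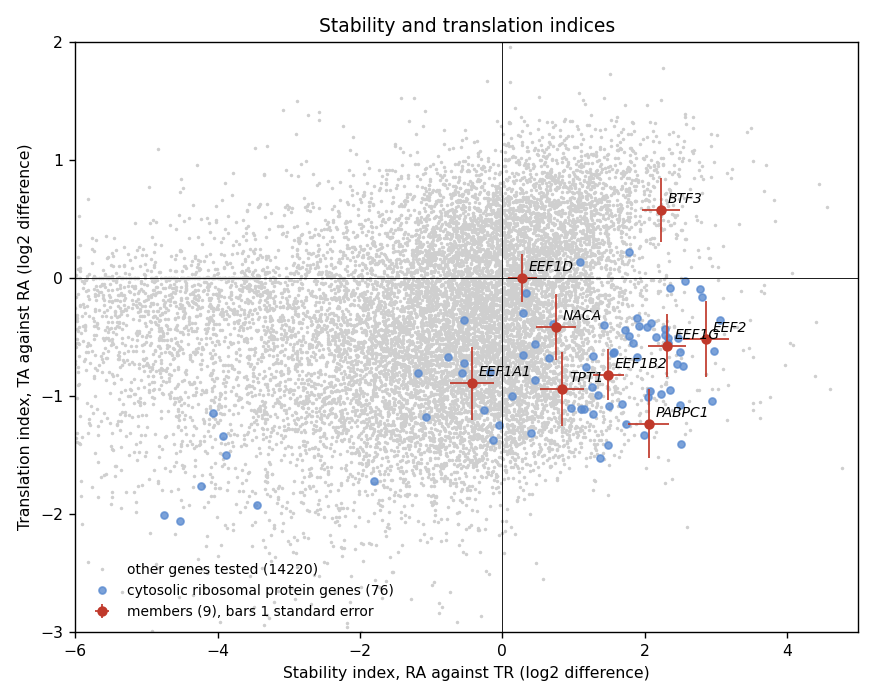
Stability index (log2 RA against TR, x axis) against translation index (log2 TA against RA, y axis) for the 14305 genes tested: the 9 mRNAs in red with bars of 1 limma standard error, the 76 ribosomal protein genes in blue and all others in grey, with 377 genes outside the axes. EEF2, EEF1G, BTF3 and PABPC1 lie to the right, above 2 on the x axis, and BTF3 is the highest of the 9 on the y axis.

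The order of the 9 mRNAs by level, all in RPKM, differed between parameters. In TR the order by mean was TPT1, EEF1A1, PABPC1, EEF2, NACA, BTF3, EEF1D, EEF1G and EEF1B2. Among neighbours in that order, the ranges did not overlap between EEF1A1 and PABPC1 and between EEF2 and NACA, and the other neighbours overlapped. In RA the order was EEF2, PABPC1, TPT1, BTF3, EEF1G, EEF1A1, EEF1B2, NACA and EEF1D, and only EEF2 and PABPC1 did not overlap. It was nevertheless the order within each of the 3 RA libraries, apart from EEF1A1 and EEF1B2, which kept it in 2 of 3. In TA, BTF3 moved to the second place and the rest kept the RA order. PABPC1 and TPT1 were the only overlapping neighbours there.

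Ratios within a library do not depend on the scaling of libraries. They do depend on the exon lengths used and on how reads shared with copies were counted. Stretches of 50 bases found elsewhere made up 47.3% for EEF1A1, 71.1% for EEF1G, 68.9% for EEF1B2, 6.32% for EEF1D and none for EEF2. They made up 18.8% for BTF3, 17.7% for PABPC1 and 2.32% for NACA. The part of this in the ratios was not tested, so they compare RPKM values and not numbers of mRNA molecules. EEF2 over EEF1A1, the translocase over the tRNA carrier, was 0.903 and 0.521 in TR, 8.83, 5.23 and 6.57 in RA, and 8.94 and 8.53 in TA. EEF2 was thus the lower of the pair in both TR libraries and the higher in the other 5. The mean log2 ratio was 3.29 higher in RA than in TR, with no overlap, and RA and TA overlapped.

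The 3 eEF1B subunits stood below EEF1A1 in TR and approached or passed it in RA and TA. EEF1G over EEF1A1 was 0.278 and 0.192 in TR, 1.81, 1.43 and 1.45 in RA, and 2.01 and 1.87 in TA. EEF1B2 over EEF1A1 was 0.226 and 0.219, then 1.07, 0.731 and 0.760, then 0.874 and 0.898. EEF1D over EEF1A1 was 0.305 and 0.222, then 0.540, 0.358 and 0.397, then 0.757 and 0.827. By RPKM, the gamma subunit was thus above EEF1A1 in all 5 RA and TA libraries, and EEF1D stayed below EEF1A1 in all 7. The exon lengths used were 3160 bases for EEF1D and 1110 for EEF1B2, where the canonical transcripts have 2090 and 808. They were 1538 against 1446 for EEF1G and 3512 in both for EEF1A1. Canonical lengths would raise these subunits against EEF1A1, and the ratios on that scale were not worked out. Between subunits, EEF1B2 over EEF1G was 0.814 and 1.14 in TR, 0.593, 0.511 and 0.525 in RA, and 0.436 and 0.480 in TA.

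NACA over BTF3 was lower in RA than in TR and lower again in TA. It was 0.919 and 1.09 in TR, 0.321, 0.389 and 0.372 in RA, and 0.164 and 0.198 in TA. The mean log2 ratio differed by −1.48 for RA against TR and by −0.99 for TA against RA, with no overlap in either. Reads of NACA2, a copy of NACA described below, are not in this ratio. With them added, the stability index of NACA was 1.04 in place of 0.75, and the ratio was not recomputed. PABPC1 over EEF1A1 was 0.891 and 0.540 in TR, 4.81, 2.87 and 4.24 in RA, and 2.53 and 3.71 in TA, and RA and TA overlapped.

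For these 7 ratios, 21 differences between parameters were tested, and 18 showed no overlap. The exact two-sided permutation p was 0.1 for every RA against TR difference, the smallest possible, and 0.333 for every TA against TR difference, also the smallest possible. Adjusted over the 21, these were 0.21 and 0.368, so none passed 0.05. The 3 that overlapped were EEF1B2, EEF2 and PABPC1 over EEF1A1 between RA and TA.

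**Figure D3:**
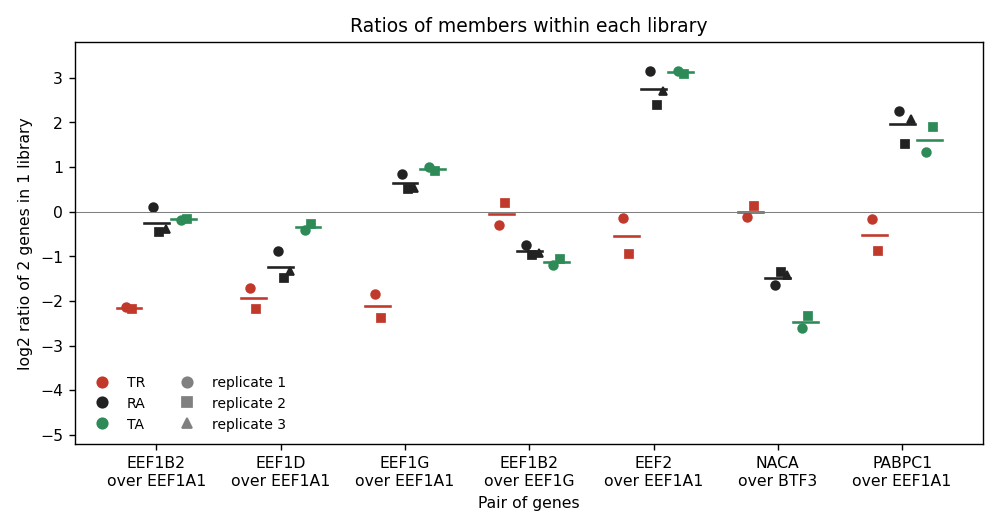
Log2 ratio of 7 pairs of mRNAs within each library (y axis), 1 point per library, coloured by parameter, with a line at each mean. NACA over BTF3 steps down from TR to RA to TA, and EEF2 over EEF1A1 lies below 0 in the 2 TR libraries and above 2 in the other 5.

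RA replicate 2 was the highest RA library for 9 of the 9 mRNAs, as it was for 71 of 76 ribosomal protein genes (93.4%) and for 35.2% of all genes tested. On the log2 scale it exceeded the mean of the other 2 RA libraries by a median of 0.66 for the 9, from 0.18 (PABPC1) to 0.84 (NACA and EEF1A1). The median over all genes tested was 0 and over ribosomal protein genes 0.68. RA replicate 1 was the lowest for 8 of the 9, for 52 of the 76 ribosomal protein genes and for 5146 of the 14305 genes tested. Without RA replicate 2, 5 of the 9 were called higher in RA than in TR and EEF1A1 was called lower, where 18.5% of all genes were higher and 46.7% lower. The replicates of RA thus varied together for these mRNAs, and the source of this spread was not tested.

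**Figure D4:**
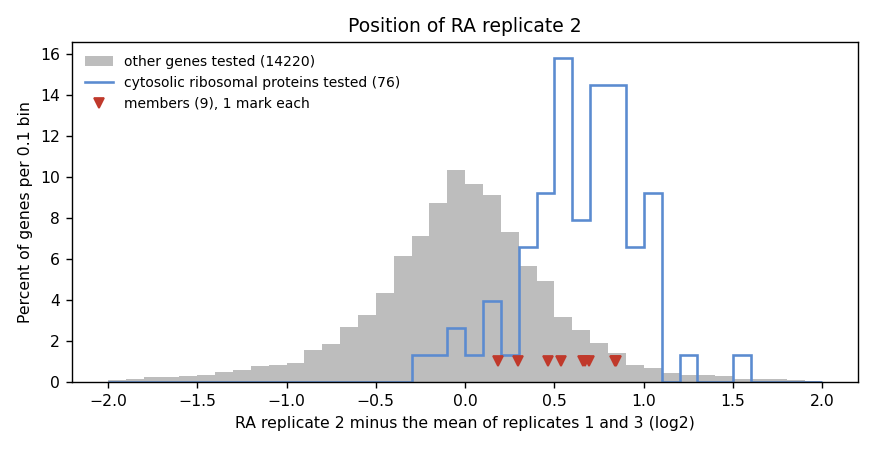
Log2 difference between RA replicate 2 and the mean of RA replicates 1 and 3 (x axis), as the percentage of genes per bin (y axis) for the 76 ribosomal protein genes (blue line) and the other genes tested (grey). The 9 mRNAs are red marks whose height carries no value, and 76 genes lie outside the axis. All 9 mRNAs lie above 0, and the median of all genes is 0.

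Close copies and paralogs bear on the levels, because reads of near-identical copies may be split between them. NACA2, an intronless copy of NACA, was listed at 20.9 and 6.23% of the RPKM of NACA in TR, 115.0, 130.0 and 106.0% in RA, and 108.8 and 100.8% in TA. Its TR values rested on 35 and 19 reads. The RPKM values use an exon length of 770 bases for NACA2 and 3472 for NACA, so the percentages differ in reads. In RA, NACA2 had 1529, 3773 and 1715 reads, and NACA had 5994, 13082 and 7293. PABPC3, an intronless copy of PABPC1, was at 9.49 and 4.20% of the RPKM of PABPC1 in TR, 15.7 to 20.8% in RA, and 22.2 and 18.1% in TA. With the reads of these copies added to the parent, the stability index was 1.04 for NACA (adjusted p = 0.0132) and 2.18 for PABPC1 (adjusted p = 0.000346). All calls of the 9 mRNAs stayed as they were.

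EEF1A2, the second eEF1A gene, known for muscle and neurons, is distinct enough that none of its stretches of 50 bases occurred elsewhere in the genome. It was at 80.1 and 53.0 RPKM in TR, 347.9, 280.8 and 237.5 in RA, and 390.0 and 335.6 in TA. Against EEF1A1 it was at 34.4 and 19.6% in TR, 267.6, 102.4 and 131.2% in RA, and 377.8 and 345.6% in TA. By RPKM, EEF1A2 was thus the lower of the pair in TR and the higher in all RA and TA libraries. Of the stretches of EEF1A1, 47.3% occurred elsewhere in the genome, so reads of the pair may not have been counted alike. The part of this in the percentages was not tested. Its stability index was 2.13 (SE 0.27, adjusted p = 0.000194) and its translation index 0.34 (adjusted p = 0.350). Of 11 paralogs tested, 6 were higher and 2 lower in RA than in TR, where 19.2% of all genes were higher and 48.0% lower. The 2 called lower, GNB4 and NACAD, passed the filter through TR alone, so these calls follow in part from the filter. PABPC4, a paralog of PABPC1, had a mean of 68.8 RPKM in TR and 69.7 in RA (adjusted p = 0.988, 95% interval of the log2 difference −0.46 to 0.46).

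**Figure D5:**
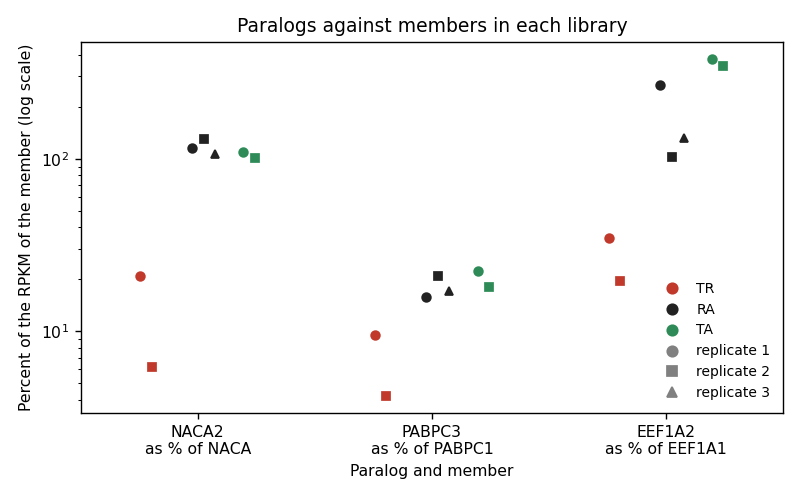
RPKM of a copy or paralog as a percentage of the RPKM of its parent, in each of the 7 libraries (log10 axis), for NACA2 over NACA, PABPC3 over PABPC1 and EEF1A2 over EEF1A1. EEF1A2 lies below 100% in the 2 TR libraries and above it in the other 5, and PABPC3 reaches at most 22.2%.

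Other lists of translation genes place these values. Of 10 other TOP mRNAs, 9 were higher in RA than in TR and 0 lower, with a median stability index of 1.70. Among them were the initiation factor subunits EIF3E (log2 2.91, adjusted p = 6.00e-05), EIF3H (2.90, 9.28e-05) and EIF3L (2.34, 5.01e-05), and FAU, which encodes a ubiquitin-like fusion to a ribosomal protein (1.55, 0.000484). For TA against RA, 0 were higher and 1 lower, with a median of −0.32. Of 76 ribosomal protein genes tested, 48 were higher and 13 lower in RA, with a median of 1.46, and 0 were higher and 27 lower in TA than in RA, with a median of −0.75. RPL8, RPL30, RPS6 and RPL37A had the highest mean RA of that list, from 1563 to 2031 RPKM.

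Of 12 other cytosolic elongation and termination factors, 8 were higher and 2 lower in RA than in TR, with a median of 0.85. None of the 11 genes with a listed start had a pyrimidine run there. EIF5A, which helps the ribosome through stalls, reached a stability index of 1.48 (adjusted p = 0.0109), ETF1, the termination factor eRF1, 1.08 (adjusted p = 0.00142), and ABCE1, which splits ribosomes after termination, 1.46 (adjusted p = 9.81e-05). In TA against RA, 3 of the 12 were higher and 2 lower, with a median of 0.28. EEF2K, the kinase that inhibits eEF2, fell by 0.64 from TR to RA on the log2 scale (adjusted p = 0.0202). These lists are larger or smaller than the 9 and were not tested against them.

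The genes nearest to the median profile of the 9 over the 7 libraries were S100A16, PFDN5, RPS3, CLIC1 and YWHAZ. The Euclidean distance on log2(RPKM + 0.1) was 0.716, 0.798, 0.899, 0.946 and 0.980. S100A16, a calcium-binding protein, was at 63.2 and 52.7 RPKM in TR, 209.8, 354.1 and 241.1 in RA, and 150.3 and 159.3 in TA. The median profile itself was 70.8 and 70.4 in TR, 235.3, 392.4 and 261.8 in RA, and 207.0 and 181.8 in TA. PFDN5 is a prefoldin subunit and RPS3 a ribosomal protein.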

How the data were processed

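The labels name 2 GRO-seq (TR), 3 RNA-seq (RA) and 2 polysome profiling (TA) libraries of HCT116. The authors mapped reads to hg19 with TopHat, counted reads over exons with HTSeq and deposited RPKM values per gene and library. CASAVA is also named in the submitters' processing notes, and versions, annotation and strand setting are not given in the sources used here.

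Differences on log2(RPKM + 0.1) were tested in R 4.3.3 by limma 3.58.1 (eBayes with trend). The fit held all 7 libraries, and p-values were adjusted by Benjamini-Hochberg over the 14305 genes tested, with a threshold of 0.05. On simulated data for RA against TR (11631 genes), limma recovered 100% of 200 changed genes and called 25 of 11431 unchanged ones. The simulation changed only genes well above the filter, by more than the smaller differences reported here. Its spread between libraries was fixed and was not taken from these data. It thus checks the fit as coded and does not show how reliable the calls are. Library sizes were worked out on the basis that RPKM times exon length and library size is whole, and all 7 were recovered on simulated data. Exon lengths were then set so that the reads came out whole. That 100% of values were whole within 0.01 read thus follows from this step and is no check. On simulated data the reads were exact for 4278 of 4295 genes. A floor of 3 reads covers counting error only.

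Ratios and shares used exact two-sided permutation tests in Python 3.11.15 with scipy 1.17.1. Gene models came from GENCODE on GRCh37 coordinates and starts from RefSeq. Missing start entries were left out. Libraries were not paired by the replicate numbers of the labels. Differences between replicates 1 and 2 were correlated across 14305 genes. The r was 0.085 for TR and RA, −0.50 for RA and TA and 0.0094 for TR and TA. A pairing of RA and TA with the numbers crossed is not given by the labels. No block was used in the main results, and the crossed pairing is reported below as an alternative.

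The members, lists and tests were chosen with earlier results of these data known. All members were named. Of each other list, up to 4 genes with the highest mean RA were named, with paralogs and genes whose symbol begins with a member's at 1 RPKM or more, and the 5 nearest genes. Alternatives were pseudocounts, filters, centring, the libraries in the fit, a replicate block and each library left out. The crossed pairing and the reads of copies added to their parent were chosen after seeing the data.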

Additional observations from a re-analysis of the deposited data

How the results depend on the processing

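Of the 414 values of the 27 differences recomputed under other settings, 343 kept direction and side of the threshold, 52 lost significance, 9 gained it and 10 changed sign. EEF2, EEF1G, BTF3, PABPC1 and EEF1B2 were called higher in RA than in TR, and BTF3, EEF2 and EEF1G higher in TA than in TR, under every alternative. None of the 3 calls for TA against RA held under all. The causes were not tested.

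With libraries centred, 1 gene was called higher and 0 lower for TA against RA, and 8 higher and 0 lower for TA against TR. EEF1A1 turned to 0.24 (RA against TR), NACA to 0.084 (TA against RA) and TPT1 to 1.07 (TA against TR). TA against RA gave 1 lower call with no filter and 1 with only the libraries compared. Over all genes there were 3009 lower calls of 20056 and 3088 of 14305. Leaving out RA replicates 1, 2 and 3 in turn gave 7, 5 and 5 higher calls for RA against TR, and 2791, 2640 and 2290 over all genes. Lower calls were 0, 1 and 0, and 6968, 6683 and 6354 over all genes. For TA against RA, 4, 2 and 2 were lower, and 4225, 3991 and 2805 over all genes. Higher calls there were 0, 1 and 0, and 1030, 831 and 422 over all genes. For TA against TR, 5, 5 and 4 were higher, and 2602, 2478 and 2305 over all genes. Leaving out a TR or TA library leaves 1 in that parameter. Leaving out each of the libraries moved EEF1D for TA against RA between −0.084 and 0.16. It moved TPT1 for TA against TR between −0.24 and 0.034, and the log2 ratio EEF1B2 over EEF1A1 for TA against RA between −0.027 and 0.25.

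With the replicate block, which pairs libraries by number alone, there were 5 higher calls for RA against TR and 0 lower calls for TA against RA. For TA against TR there were 3 higher and 1 lower. Over all genes these counts were 2083, 1387, 2173 and 7754. EEF1D turned to −0.068 for TA against RA. With the crossed pairing, 4 were called lower for TA against RA, the 3 called without it and EEF1A1 (adjusted p = 0.0297), and EEF1D was −0.068. Over all genes that passed the filter in RA or TA, 3919 were called lower with it.

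Over all genes, the main counts were 2743 higher and 6870 lower for RA against TR, 953 and 4173 for TA against RA, and 2439 and 8231 for TA against TR. Centring gave 5066 higher for RA against TR, 2713 and 1404 for TA against RA, and 5436 and 5044 for TA against TR. A filter of 1 RPKM in each parameter gave 3656 and 4935 lower for RA and TA against TR, the block gave 109 and 1387 for TA against RA, and without TA replicate 1 there were 200 and 1806. TA against RA had 457 higher without TA replicate 2 and 422 without RA replicate 3. TR has the fewest reads, down to 198 for EEF1B2.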

Other observations

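Of 4 mitochondrial elongation factors, 2 were higher and 0 lower in RA than in TR (median log2 0.67), and 2 were higher and 0 lower in TA than in RA (median 0.33). TUFM, the mitochondrial counterpart of eEF1A, was at 64.6 and 58.4 RPKM in TR, 195.2, 153.8 and 155.1 in RA, and 275.4 and 301.6 in TA, with no overlap. Its translation index was 0.79 (SE 0.20, limma adjusted p = 0.0195). TSFM, its exchange factor, had 1.14 (SE 0.23, adjusted p = 0.00900), GFM1 −0.12 (adjusted p = 0.642) and GFM2 −0.54 (adjusted p = 0.141). Of the 6 genes tested that make diphthamide, the modified histidine of eEF2, 0 were higher and 1 lower in RA than in TR (median −0.12), and 2 were higher and 3 lower in TA than in RA (median −0.15). DPH7 fell by 0.96 from RA to TA (adjusted p = 0.00546) and DPH1 rose by 0.87 (adjusted p = 0.0232).

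Of 13 genes that regulate TOP mRNAs, 3 were higher and 1 lower in RA than in TR (median −0.02), and 0 were higher and 7 lower in TA than in RA (median −0.65), where 29.2% of all genes were lower. PAIP2, an inhibitor of poly(A)-binding protein, was at 85.0, 87.7 and 65.2 RPKM in RA and 30.1 and 40.5 in TA (log2 −1.17, SE 0.21, adjusted p = 0.00620). LARP1, which binds TOP mRNAs, was at 44.2, 55.3 and 52.0 in RA and 41.2 and 29.1 in TA (log2 −0.54), which did not pass the test. EIF4EBP1, the mTORC1 target that blocks eIF4E, had a stability index of 1.73 (adjusted p = 0.000321).

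Among symbols that begin with a member's name, NACAP1, a pseudogene of NACA, averaged 0.798 RPKM in TR and 4.31 in RA. Its TR values rested on 2 and 3 reads, and it passed the filter through RA and TA only. EEF1DP3 averaged 2.11 RPKM in TR and 0.114 in RA, where it had 3, 0 and 1 reads. NACAD averaged 1.70 and 0.0839 RPKM. Both passed the filter through TR alone. The directions thus follow in part from the filter, and no test is given. Of 7 colon epithelial markers, 4 were higher and 2 lower in RA than in TR, where 19.2% of all genes were higher and 48.0% lower. VIL1 among them passed the filter through TR alone. The 2 markers of other cell types tested, COL1A1 and HBB, were both called lower. HBB passed the filter through TR alone, with 10 and 2 reads in TR and 1, 0 and 0 in RA. Its call thus follows in part from the filter.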
